A study of Homo sapiens with 24 samples.

Results

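WNT ligands, their frizzled receptors and the secreted proteins that block them were followed as a group of 44 genes in 3 human breast cancer cell lines. The group was every gene of the count files named as a WNT ligand, a frizzled (FZD), a secreted frizzled-related protein (SFRP1 to SFRP5) or a Dickkopf (DKK1 to DKK4), together with AXIN2, LGR4, LGR5, RNF43, ZNRF3, NKD1 and NKD2. Each of the 44 symbols stood once among 58735 entries of the files: 19 ligands, 10 frizzleds, 8 antagonists and 7 genes of the feedback and R-spondin arm. Polyadenylated RNA was sequenced from 24 libraries in 8 groups of 3 replicates, A, B and C.

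HCC1395 cells received both agents (EZH2i+AKTi), the AKT kinase inhibitor ipatasertib alone (AKTi), the EZH2 inhibitor tazemetostat alone (EZH2i) or DMSO. Each agent was used at 5 uM, alone and in combination. HCC38 and HCC1937 cells received EZH2i+AKTi or DMSO. All are established lines labelled as breast cancer, each grown as a single line with no stroma of its own. The labels describe a schedule for a different line and for chromatin accessibility, so how long these cells were treated is not clear. The labels do not say whether replicates came from separate cultures, and p-values here cover no more than the spread among these libraries, which could be technical.

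WNT proteins are lipid-modified secreted ligands. In the canonical branch they bridge a frizzled and the co-receptor LRP5 or LRP6, which spares beta-catenin from destruction and lets it act with TCF/LEF factors in the nucleus. In the other branches, for which WNT5A and WNT11 are best known, signals reach the cytoskeleton and cell polarity without beta-catenin. SFRPs bind WNT proteins outside the cell and Dickkopfs bind LRP5 and LRP6. AXIN2, LGR5, RNF43, ZNRF3 and NKD1 are widely used target genes of the canonical branch, and the proteins of most of them dampen or tune it. EZH2 is the catalytic subunit of the Polycomb complex that deposits a repressive histone mark at developmental genes, and AKT kinases act below growth factor receptors.

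Library totals ran from 33469927 to 51815656 counts. The 44 genes took 0.165 to 0.184% of the counts of HCC1395 under EZH2i+AKTi, 0.164 to 0.166% under AKTi, 0.108 to 0.111% under EZH2i and 0.0974 to 0.105% in DMSO. Their share was 0.286 to 0.319% in HCC38 and 0.178 to 0.182% in HCC1937 under EZH2i+AKTi, against 0.159 to 0.165% and 0.117 to 0.120% in the DMSO libraries of those lines. In HCC38 most of these counts were from DKK1, with 84122 to 96825 per library under EZH2i+AKTi and 37120 to 39521 in DMSO. The share of counts from mitochondrial genes moved with treatment: it was 6.14 to 6.30% under EZH2i+AKTi, 5.34 to 5.72% under AKTi and 4.49 to 5.19% under EZH2i in HCC1395, against 3.77 to 3.92% in DMSO. In HCC1937 it was 6.72 to 8.54% under EZH2i+AKTi and 4.81 to 6.37% in DMSO. Replicate C of HCC38 under EZH2i+AKTi stood apart in its group with 7.77%, against 4.76% and 5.19% in replicates A and B and 5.08 to 5.82% in HCC38 DMSO. Of the epithelial markers, EPCAM was at 1.37 to 2.39 CPM (counts relative to the library total, scaled over all 24 libraries) and CDH1 at 0.0807 to 0.597 CPM in HCC1395 DMSO libraries and KRT19 and KRT17 were at no more than 2.08 and 1.10 CPM. Other epithelial keratins were present there, with KRT14 at 423 to 444 CPM, KRT8 at 29.5 to 35.8 CPM and KRT18 at 28.7 to 29.8 CPM. In the other lines EPCAM was at 322 to 347 CPM (HCC1937) and 495 to 526 CPM (HCC38) in DMSO. The mesenchymal marker VIM reached 1425 to 1641 CPM in HCC1395 DMSO libraries. Of the fibroblast markers COL1A2 was at 723 to 748 CPM and COL1A1 at 57.6 to 63.9 CPM there, while DCN (at most 0.350 CPM), LUM (at most 0.0269 CPM) and PDGFRA (2.08 to 2.56 CPM) were near 0 or low. In these bulk samples, fewer cells that express a gene and less of its RNA per cell cannot be told apart.

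**Figure D1:**
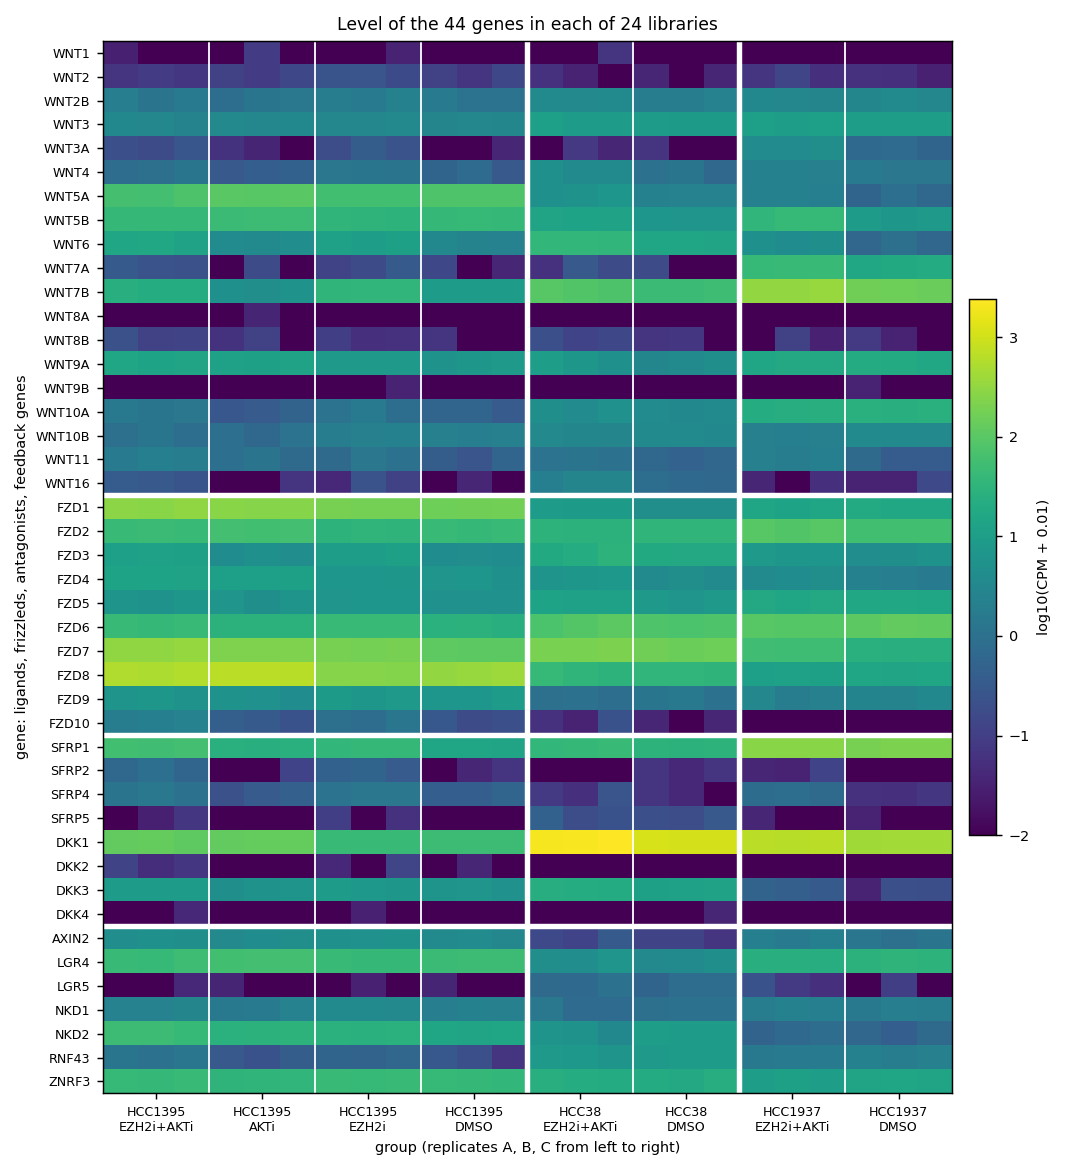
Level of each of the 44 genes (down the page, by class) in each of 24 libraries (across), as log10 of CPM + 0.01. Levels differ by line, with WNT5A, FZD1 and FZD8 bright in HCC1395, DKK1 in HCC38 and HCC1937, and WNT7B and SFRP1 in HCC1937.

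In DMSO the lines differed first in which ligand they transcribed. Levels between genes are compared per length, as RPKM (CPM per 1000 bases of all annotated exons of a gene). In HCC1395 WNT5A stood at 10.8 RPKM and WNT5B at 9.07 RPKM, and together they made 72.9 to 74.2% of the summed RPKM of the 19 ligands. In HCC38 the same pair made 7.01 to 7.09%, and in HCC1937 3.16 to 3.90%. WNT7B, a ligand known in epithelia for the canonical branch, led in HCC1937 with 30.7 RPKM, which was 56.6% of ligand RPKM on average, followed by WNT10A (7.51 RPKM) and WNT9A (4.74 RPKM). HCC38 was led by WNT7B (9.49 RPKM) and WNT6 (8.54 RPKM), whose ranges of 9.12 to 9.999 and 8.10 to 9.05 RPKM over 3 libraries did not overlap.

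For the ligands given here, the differences between lines were far larger than the spread of replicates. WNT5A was at 0.529, 0.902 and 0.604 CPM in HCC1937 DMSO, 2.37, 2.42 and 2.48 CPM in HCC38 DMSO, and 78.5, 81.2 and 80.7 CPM in HCC1395 DMSO. The groups did not overlap, and the log2 difference was -6.87 ± 0.13 (SE) for HCC1937 against HCC1395 and -5.05 ± 0.11 for HCC38 against HCC1395 (edgeR quasi-likelihood test, Benjamini-Hochberg adjusted p = 1.87e-27 and 1.56e-25). WNT7B ran the other way, at 163, 158 and 144 CPM in HCC1937 DMSO, 47.2, 46.1 and 50.5 CPM in HCC38 DMSO, and 8.88, 9.24 and 9.67 CPM in HCC1395 DMSO. WNT7A, a close relative of WNT7B, was at 16.4, 18.6 and 20.5 CPM in HCC1937 DMSO, while the whole HCC38 and HCC1395 DMSO groups held 6 counts each. WNT10A was at 25.9, 24.5 and 26.4 CPM in HCC1937 DMSO, 3.94, 3.26 and 3.75 CPM in HCC38 DMSO, and 0.565, 0.569 and 0.334 CPM in HCC1395 DMSO. WNT6 was highest in HCC38. WNT10B (3.43 to 3.77 CPM in HCC1937 DMSO and 3.33 to 3.74 CPM in HCC38 DMSO) and WNT11 overlapped between these lines.

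Frizzleds also set the lines apart. FZD8 at 88.7 RPKM, FZD7 at 27.8 RPKM and FZD1 at 23.7 RPKM led in HCC1395 DMSO, where FZD8 alone made 51.6% of frizzled RPKM. FZD7 led in HCC38 DMSO with 41.2 RPKM, or 46.6%, ahead of FZD6 (19.0 RPKM) and FZD2 (15.7 RPKM). In HCC1937 DMSO FZD6 (25.6 to 29.8 RPKM) and FZD2 (26.3 to 27.1 RPKM) led, with overlapping ranges. FZD8 was at 14.8, 13.7 and 15.2 CPM in HCC1937 DMSO, 35.0, 35.0 and 32.4 CPM in HCC38 DMSO, and 329, 356 and 387 CPM in HCC1395 DMSO. FZD1 was likewise lower in HCC1937 and HCC38 DMSO than in HCC1395 DMSO, by log2 differences of -3.23 ± 0.08 and -5.16 ± 0.09. FZD10 had 0 counts in all HCC1937 libraries.

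Among the antagonists DKK1 was the most abundant in every line, with 501 RPKM in HCC38 DMSO, 193 RPKM in HCC1937 DMSO and 22.2 RPKM in HCC1395 DMSO. It stood at 413, 430 and 433 CPM in HCC1937 DMSO, 1127, 1110 and 1080 CPM in HCC38 DMSO, and 47.9, 49.97 and 48.7 CPM in HCC1395 DMSO. SFRP1 was at 187, 207 and 214 CPM in HCC1937 DMSO, 30.5, 29.4 and 30.9 CPM in HCC38 DMSO, and 14.5, 14.9 and 14.2 CPM in HCC1395 DMSO. DKK3, whose role in WNT signalling is disputed, was highest in HCC38 DMSO (11.3 to 12.6 CPM) and nearly absent in HCC1937 DMSO (0.0240 to 0.198 CPM).

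Feedback genes were split between lines as well. AXIN2, a scaffold of the beta-catenin destruction complex, was at 1.30, 0.946 and 1.15 CPM in HCC1937 DMSO, 0.114, 0.120 and 0.0564 CPM in HCC38 DMSO, and 3.71, 3.90 and 3.08 CPM in HCC1395 DMSO. RNF43, a ubiquitin ligase that removes frizzleds from the surface, was at 2.36, 1.78 and 2.21 CPM in HCC1937 DMSO, 7.87, 9.33 and 8.97 CPM in HCC38 DMSO, and 0.296, 0.199 and 0.0556 CPM in HCC1395 DMSO. Thus AXIN2 was highest in the line with the least RNF43, and the reverse held in HCC38. LGR5, an R-spondin receptor of stem cells, was at 0.542, 0.838 and 0.846 CPM in HCC38 DMSO and at no more than 0.217 CPM in any HCC1937 or HCC1395 library. Its relative LGR4 was at 28.3 to 31.6 CPM in HCC1937 DMSO, 3.42 to 4.71 CPM in HCC38 DMSO and 46.8 to 49.7 CPM in HCC1395 DMSO. NKD2, which binds Dishevelled, was at 0.396 to 0.708, 9.60 to 9.78 and 13.9 to 14.9 CPM in the DMSO libraries of HCC1937, HCC38 and HCC1395. AXIN2 overlaps AC004805.1 on the same strand, and LGR5 overlaps TSPAN8 on the opposite strand.

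Of 36 genes of the group tested in the joint fit of all lines, 17 were called higher and 15 lower in HCC38 DMSO than in HCC1395 DMSO, where 74.7% of all 20697 genes tested were called in either direction. HCC1937 DMSO against HCC1395 DMSO gave 15 higher and 15 lower beside 73.0% of all genes, and HCC1937 DMSO against HCC38 DMSO gave 18 and 14 beside 71.9%. Between lines, then, most genes of any kind were called, and the size of a difference says more than the call. Differences of at least 2-fold numbered 12 higher and 10 lower, 13 and 14, and 11 and 12 in those comparisons, beside 45.3%, 42.0% and 40.7% of all genes. WNT1, WNT2, WNT8A, WNT8B, WNT9B, SFRP5, DKK2 and DKK4 passed no filter on low counts, with at most 19 counts in any library.

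**Figure D2:**
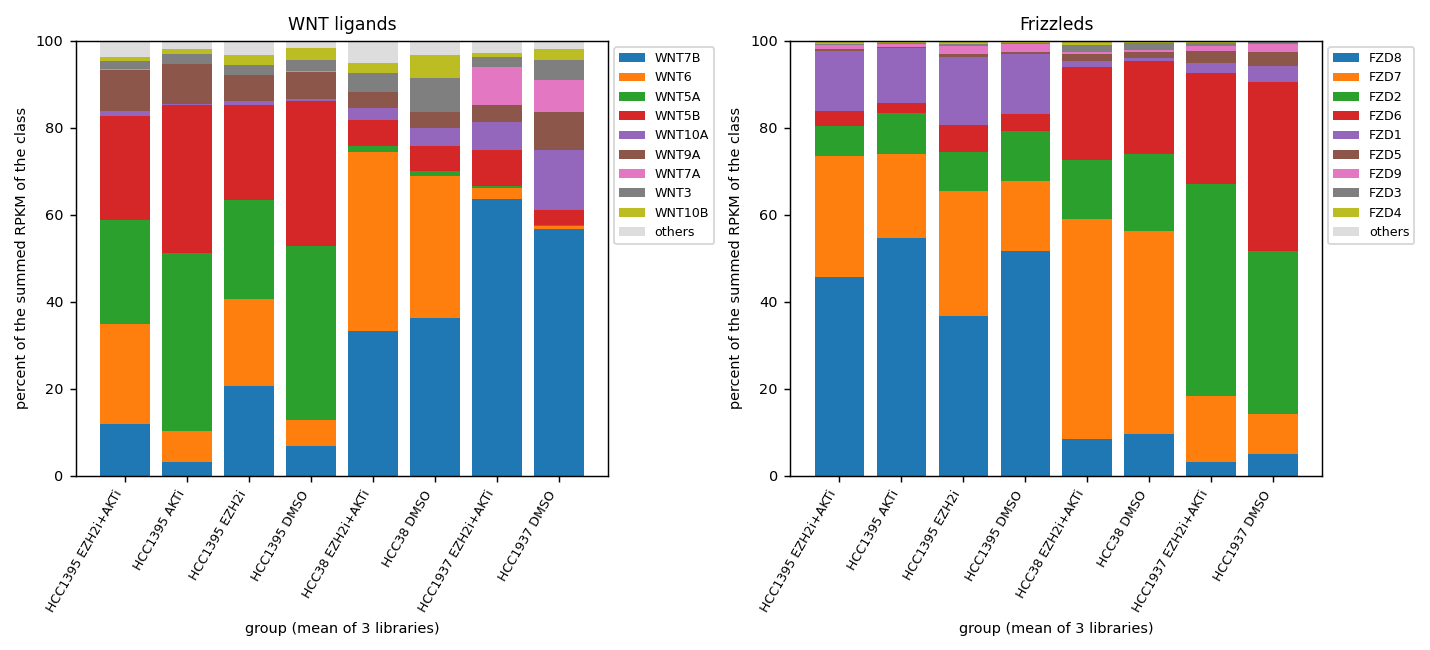
Make-up of the WNT ligands (left) and frizzleds (right) in each group, as percent of the summed RPKM of the class, mean of 3 libraries. In HCC1395 the WNT5A and WNT5B blocks shrink under EZH2i+AKTi and under EZH2i while the WNT6 and WNT7B blocks widen, and FZD8, the widest frizzled block in DMSO, is narrowest under EZH2i.

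In the annotation (GENCODE 29, hg38) 4 neighbouring pairs of ligand genes lie within 100 kb of each other, and they were not always detected together. WNT3 (chr17:46762506-46833154, minus strand) and WNT9B (chr17:46833201-46886730, plus strand) face away from each other with 46 bases between them. WNT3 was at 2.58 to 11.2 CPM in the 24 libraries, while WNT9B never had more than 1 count in a library. WNT10B and WNT1 lie 6689 bases apart on chromosome 12, and WNT10B was detected throughout whereas WNT1 had 7 counts in all libraries together. WNT6 (chr2:218859821-218874233) and WNT10A (chr2:218880363-218899581) lie 6129 bases apart on the same strand. WNT9A and WNT3A are 59152 bases apart on chromosome 1.

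EZH2i alone in HCC1395 raised a set of ligands that are low in this line. WNT6, WNT7B, WNT4, WNT10A and WNT11 rose while WNT5A and WNT5B, the ligands that lead in DMSO, fell. The antagonists SFRP1 and SFRP4 rose, as did FZD3, FZD6, FZD7 and the feedback genes AXIN2, NKD1 and NKD2. The frizzleds FZD2 and FZD8 fell, together with LGR4 and, by a small amount, DKK1. In all, 19 genes were called higher and 6 lower of 32 tested, where 18.8% of all 18074 genes tested were called higher and 14.9% lower. FZD10, SFRP2, WNT11 and RNF43 passed the filter only through treated libraries. Of the 28 genes past the count minimum in every DMSO library, 15 were higher and 6 lower, beside 17.7% and 17.3% of all such genes, with a median log2 change of 0.39 in the group and -0.01 in all such genes. In every change against DMSO called for a gene of the group, here and under the other treatments and lines, the treated libraries did not overlap the DMSO libraries.

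WNT6, a canonical ligand of developing epithelia, had 12.2, 10.4 and 11.6 CPM under EZH2i, against 3.23, 2.53 and 2.47 CPM in DMSO, a log2 change of 2.05 ± 0.13 (adjusted p = 8.65e-11). WNT7B (chr22:45920362-45977129) had 34.0, 34.7 and 34.6 CPM under EZH2i, against 8.88, 9.24 and 9.67 CPM in DMSO, a change of 1.90 ± 0.07 (adjusted p = 1.30e-13). All EZH2i libraries lay well above all DMSO libraries for both genes. WNT10A, the neighbour of WNT6, had 1.11, 1.62 and 0.870 CPM under EZH2i, against 0.565, 0.569 and 0.334 CPM in DMSO (1.31 ± 0.30). WNT4, a ligand of mammary side-branching in the mouse, had 1.35, 1.20 and 1.14 CPM under EZH2i, against 0.538, 0.740 and 0.306 CPM in DMSO (1.22 ± 0.29). Both were low throughout. WNT3A and SFRP2 are given no fold, since they had 3 counts or fewer in DMSO: WNT3A had 33 counts over the EZH2i libraries and 1 over the DMSO libraries, and SFRP2 had 55 and 3.

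WNT5A (chr3:55465715-55490539) had 56.6, 55.4 and 57.0 CPM under EZH2i, against 78.5, 81.2 and 80.7 CPM in DMSO, and fell by 0.50 ± 0.06 on the log2 scale (adjusted p = 1.79e-06). WNT5B fell by 0.32 ± 0.06. With the rise of WNT6 and WNT7B, the share of WNT5A and WNT5B in ligand RPKM was 43.95 to 45.3% under EZH2i, against 72.9 to 74.2% in DMSO. The summed ligand RPKM was 33.0 to 33.7 under EZH2i and 26.5 to 27.5 in DMSO.

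FZD7 (chr2:202034587-202038445), a frizzled often studied in triple-negative breast cancer, had 193, 181 and 190 CPM under EZH2i, against 109, 105 and 107 CPM in DMSO (0.82 ± 0.05, adjusted p = 9.71e-11). FZD3, known from axon guidance, had 9.80, 10.2 and 11.3 CPM under EZH2i, against 4.06, 4.41 and 4.22 CPM in DMSO (1.31 ± 0.10). FZD8 had 259, 252 and 245 CPM under EZH2i, against 329, 356 and 387 CPM in DMSO, and fell by 0.50 ± 0.05. The rises and the fall left the summed frizzled RPKM at 167 to 173 under EZH2i and 165 to 180 in DMSO. FZD1 (0.17 ± 0.05, adjusted p = 0.0142) and FZD5 (0.35 ± 0.12, adjusted p = 0.0228) were called, but FZD1 lost its call with RLE scaling and with DESeq2, and FZD5 without any of 5 single libraries.

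SFRP1 had 36.8, 38.6 and 37.96 CPM under EZH2i, against 14.5, 14.9 and 14.2 CPM in DMSO (1.38 ± 0.06, adjusted p = 6.56e-13). SFRP4 had 1.11, 1.33 and 1.37 CPM under EZH2i, against 0.404, 0.398 and 0.556 CPM in DMSO (1.49 ± 0.28). DKK3 rose by 0.43 ± 0.12 (adjusted p = 0.00657, and 0.0953 without EZH2i replicate A). Of the target and feedback genes, AXIN2 had 5.08, 5.26 and 5.72 CPM under EZH2i, against 3.71, 3.90 and 3.08 CPM in DMSO (0.59 ± 0.13, adjusted p = 0.00122). NKD1, which binds Dishevelled like NKD2, had 3.73, 3.496 and 3.36 CPM under EZH2i, against 1.99, 2.27 and 2.17 CPM in DMSO (0.72 ± 0.17). NKD2 had 27.6, 25.9 and 27.0 CPM under EZH2i, against 14.4, 13.9 and 14.9 CPM in DMSO (0.90 ± 0.07). ZNRF3, the paralog of RNF43, missed the threshold at 0.15 ± 0.06 (adjusted p = 0.0724), and LGR5 had 1 count over the libraries of each of these groups.

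Under AKTi alone in HCC1395, DKK1, SFRP1, FZD1, FZD2, FZD4, FZD7, FZD8, WNT9A and NKD2 rose most clearly. WNT5A and WNT5B rose a little, and WNT7B and WNT10B fell. Of 32 genes tested, 14 were called higher and 4 lower, where 27.1% of all genes were called higher and 22.6% lower. Among the 28 past the minimum in DMSO, 13 were higher and 4 lower, beside 29.0% and 26.0% of all such genes, with medians of 0.16 in the group and 0.03 in all such genes.

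DKK1 (chr10:52314296-52318042) had 123, 129 and 126 CPM under AKTi and 43.8, 41.4 and 42.0 CPM under EZH2i, against 47.9, 49.97 and 48.7 CPM in DMSO. Its log2 change was 1.36 ± 0.06 (adjusted p = 1.06e-13) under AKTi and -0.20 ± 0.06 under EZH2i (adjusted p = 0.00978). FZD8 had 660, 654 and 643 CPM under AKTi, against 329, 356 and 387 CPM in DMSO (0.86 ± 0.05), whereas it was lower than in DMSO under EZH2i. WNT7B had 4.98, 4.67 and 5.68 CPM under AKTi, against 8.88, 9.24 and 9.67 CPM in DMSO, and fell by 0.87 ± 0.09. WNT5A had 99.4, 98.3 and 102 CPM under AKTi, above every DMSO library (0.31 ± 0.06). WNT5B had log2 changes of 0.30 ± 0.06 under AKTi and -0.32 ± 0.06 under EZH2i, FZD2 of 0.50 ± 0.06 and -0.37 ± 0.06, and LGR4 of 0.28 ± 0.07 and -0.28 ± 0.07, each called. The comparisons with each agent share the DMSO libraries.

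WNT10B, a canonical ligand of mammary and adipose development, had 0.903, 0.637 and 1.11 CPM under AKTi and 1.79, 2.21 and 2.31 CPM under EZH2i, against 2.18, 1.96 and 2.22 CPM in DMSO. It fell by 1.27 ± 0.22 on the log2 scale under AKTi (adjusted p = 5.99e-05) and did not pass under EZH2i (adjusted p = 0.996). FZD4, which also binds the ligand norrin, had 11.04, 10.9 and 11.7 CPM under AKTi, against 6.40, 6.63 and 5.09 CPM in DMSO (0.89 ± 0.10). FZD4 overlaps PRSS23 on the opposite strand, and the strand setting of the counting is not known. FZD7 had 225, 215 and 224 CPM under AKTi, against 109, 105 and 107 CPM in DMSO (1.04 ± 0.05). SFRP1 rose by 0.80 ± 0.06, NKD2 by 1.01 ± 0.07 and WNT9A by 0.84 ± 0.10, and WNT11 by 1.21 ± 0.32 from few counts. AXIN2 (0.16 ± 0.13, adjusted p = 0.333), NKD1 (-0.23 ± 0.18, adjusted p = 0.310) and RNF43 (0.69 ± 0.46, adjusted p = 0.225) did not pass, and ZNRF3 fell by 0.19 ± 0.06 (adjusted p = 0.0130), a call lost without AKTi replicate A or DMSO replicate A. Summed frizzled RPKM was 294 to 302 under AKTi and 165 to 180 in DMSO.

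With both agents in HCC1395, WNT6, WNT7B, WNT4, WNT10A and WNT11, which EZH2i alone raised, were called higher. So were FZD1, FZD4, FZD7, FZD8, DKK1 and SFRP1, which AKTi alone raised, but FZD2 was not (log2 change 0.10). FZD7, SFRP1 and WNT11 rose under either agent alone. Of 32 genes tested 21 were called higher and 2 lower, where 32.5% of all genes were higher and 27.4% lower. Of the 28 past the minimum in DMSO, 17 were higher and 2 lower, beside 31.2% and 31.8% of all such genes. Their median log2 change was 0.64, and that of all such genes 0.00. By class, 5 of 10 ligands, 6 of 9 frizzleds, 4 of 4 antagonists and 2 of 5 feedback genes among these were higher, and the 2 lower genes were the ligands WNT5A and WNT10B.

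WNT6 had 14.9, 16.3 and 12.5 CPM under EZH2i+AKTi, against 3.23, 2.53 and 2.47 CPM in DMSO (2.40 ± 0.12, adjusted p = 1.02e-12). FZD7 had 315, 305 and 344 CPM under EZH2i+AKTi, against 109, 105 and 107 CPM in DMSO (1.58 ± 0.05, adjusted p = 1.04e-15). SFRP1 had 57.1, 54.1 and 59.3 CPM under EZH2i+AKTi, against 14.5, 14.9 and 14.2 CPM in DMSO (1.96 ± 0.06, adjusted p = 5.18e-16). For these and for NKD2 (48.7, 48.1 and 40.9 CPM under EZH2i+AKTi, 1.67 ± 0.07), the libraries with both agents lay above those with either agent. RNF43 had 1.25, 1.04 and 1.29 CPM under EZH2i+AKTi, against 0.296, 0.199 and 0.0556 CPM in DMSO, or 159 and 20 counts per group. It overlaps SUPT4H1 and AC004687.2 on the same strand. FZD10 had 1.91, 2.12 and 2.42 CPM under EZH2i+AKTi, against 0.296, 0.171 and 0.195 CPM in DMSO. Its counts per group were 284 and 24. The log2 change under EZH2i+AKTi was 2.21 for WNT11, 1.46 for WNT10A, 1.42 for FZD3, 1.41 for SFRP4, 1.05 for WNT9A and -1.06 for WNT10B. FZD4 rose as well, with 1.77 RPKM under EZH2i+AKTi and 0.818 RPKM in DMSO.

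Where the agents had opposite effects, the combination lay between them or close to one of them. WNT7B had 23.1, 21.3 and 22.0 CPM under EZH2i+AKTi, below the EZH2i libraries (34.0 to 34.7 CPM) and above DMSO (8.88 to 9.67 CPM). Adding AKTi to EZH2i lowered it by 0.65 ± 0.07 on the log2 scale, and adding EZH2i to AKTi raised it by 2.12 ± 0.08. DKK1 had 122, 131 and 112 CPM under EZH2i+AKTi, which overlapped the AKTi libraries (123 to 129 CPM). Adding EZH2i to AKTi gave DKK1 a change of -0.05 ± 0.05 that did not pass (adjusted p = 0.528). FZD8 had 550, 530 and 569 CPM under EZH2i+AKTi, between AKTi (643 to 660 CPM) and DMSO (329 to 387 CPM). WNT5A had 63.5, 59.9 and 74.1 CPM under EZH2i+AKTi, with replicate C the highest, against 78.5 to 81.2 CPM in DMSO. It fell by 0.29 ± 0.06 (adjusted p = 0.000306).

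AXIN2 had 4.45, 5.02 and 4.82 CPM under EZH2i+AKTi, against 3.71, 3.90 and 3.08 CPM in DMSO (0.41 ± 0.13, adjusted p = 0.0103, and 0.0670 without DMSO replicate C). WNT4 rose by 0.90 ± 0.29 (adjusted p = 0.0125, and 0.0789 without DMSO replicate C). NKD1 (0.24 ± 0.17, adjusted p = 0.231) and ZNRF3 (0.08 ± 0.06, adjusted p = 0.300) did not pass. Against EZH2i alone, EZH2i+AKTi gave 15 genes higher and 4 lower of 32, beside 23.9% and 25.1% of all genes. Against AKTi alone it gave 18 higher and 5 lower of 32, beside 17.0% and 18.6%. Of the 28 past the minimum in DMSO, these were 12 and 4, and 14 and 5. Their median log2 changes were 0.15 and 0.28, beside -0.01 and -0.03 for all such genes.

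The interaction, which sets the log2 change under both agents against the added changes of AKTi and EZH2i alone, was called for 1 of 32 genes of the group, where 1.58% of all genes were called. Of all genes called, 33.2% were above the sum, 53.9% with RLE scaling and 58.7% with DESeq2, so that the direction depended on the scaling. FZD7 was lower than the sum by 0.28 on the log2 scale (SE 0.07, adjusted p = 0.0471). That call was lost under 15 alternatives, among them RLE scaling and DESeq2. FZD8 (0.25 ± 0.08, adjusted p = 0.117), SFRP1 (-0.22 ± 0.08, adjusted p = 0.237) and NKD2 (-0.24 ± 0.10, adjusted p = 0.286) had unadjusted p under 0.05 and did not pass. For most of the group the log2 changes under both agents were thus not told apart from the sums, and the SE of each gene sets how large a departure could have been missed.

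**Figure D3:**
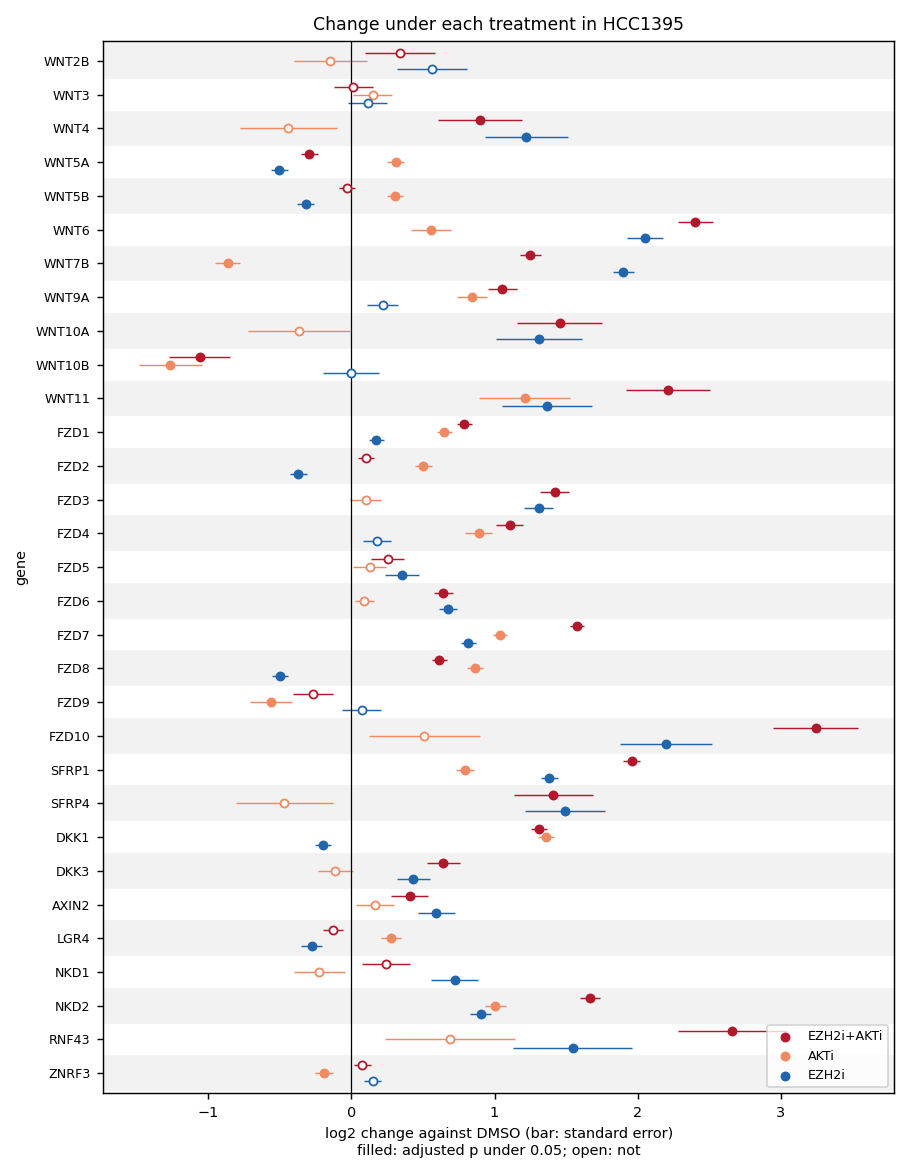
Log2 change against DMSO in HCC1395 for each tested gene except SFRP2, which has at most 3 counts in DMSO, under EZH2i+AKTi (red), AKTi (orange) and EZH2i (blue). Bars are standard errors and filled points have adjusted p under 0.05. WNT7B lies at 1.25, -0.87 and 1.90 and DKK1 at 1.31, 1.36 and -0.20, while FZD7 and SFRP1 lie right of 0 under all 3 treatments.

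HCC38 and HCC1937 were treated with both agents only. In HCC38 16 genes of the group were called higher and 1 lower of 30 tested, all of which passed the minimum in every DMSO library. Beside this, 16.8% of all genes were higher and 14.5% lower. Among genes past the minimum in DMSO these shares were 15.7% and 15.8%, and the medians were 0.35 in the group and -0.04 in all such genes. In HCC1937 17 were higher and 6 lower of 32, beside 30.5% and 28.8% of all genes. Of the 30 past the minimum in DMSO, which leaves out DKK3 and SFRP4, 15 were higher and 6 lower, beside 28.7% and 31.6% of all such genes, with medians of 0.34 and -0.02. By class, 9 of 12 ligands, 4 of 9 frizzleds, 3 of 3 antagonists and 0 of 6 feedback genes past the minimum were higher in HCC38. In HCC1937 these were 8 of 13, 4 of 9, 2 of 2 and 1 of 6.

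WNT6 had 36.1, 36.3 and 35.0 CPM under EZH2i+AKTi in HCC38, against 14.5, 15.4 and 13.8 CPM in DMSO (1.27 ± 0.10, adjusted p = 1.56e-05). In HCC1937 it had 5.05, 4.24 and 4.82 CPM under EZH2i+AKTi, against 0.601, 0.968 and 0.583 CPM in DMSO (2.70 ± 0.19, adjusted p = 1.64e-08). WNT6 thus rose in each line from different levels. WNT7B had 97.6, 83.4 and 76.5 CPM under EZH2i+AKTi in HCC38, against 47.2, 46.1 and 50.5 CPM in DMSO (0.81 ± 0.11). In HCC1937 it had 329, 329 and 360 CPM under EZH2i+AKTi, against 163, 158 and 144 CPM in DMSO (1.13 ± 0.06). WNT7A had 39.6, 42.8 and 42.9 CPM in HCC1937 under EZH2i+AKTi, against 16.4, 18.6 and 20.5 CPM in DMSO (1.17 ± 0.08). Summed ligand RPKM was 48.2 to 54.8 in HCC38 and 102 to 111 in HCC1937 under EZH2i+AKTi, against 26.1 to 26.3 and 51.8 to 56.1 in their DMSO libraries.

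WNT5A and WNT5B rose in both of these lines. WNT5A had 5.06, 5.47 and 6.81 CPM under EZH2i+AKTi in HCC38, against 2.37, 2.42 and 2.48 CPM in DMSO (1.22 ± 0.16), and 2.28, 2.32 and 2.09 CPM in HCC1937, against 0.529, 0.902 and 0.604 CPM in DMSO (1.70 ± 0.22). WNT5B had 35.1, 39.7 and 39.6 CPM under EZH2i+AKTi in HCC1937, against 9.11, 6.91 and 7.72 CPM in DMSO (2.27 ± 0.10, adjusted p = 6.43e-11). Under both agents WNT5B in HCC1937 thus stood at the level of HCC1395 (38.3 to 38.7 CPM). The gene overlaps FBXL14 on the opposite strand. WNT3A, the ligand most used to activate the canonical branch in culture, had 4.01, 3.97 and 4.51 CPM under EZH2i+AKTi in HCC1937, against 0.697, 0.748 and 0.520 CPM in DMSO (2.67 ± 0.18, adjusted p = 9.21e-09). Its neighbour WNT9A was at 14.8 to 18.1 CPM under EZH2i+AKTi and 16.7 to 20.02 CPM in DMSO there and did not pass (adjusted p = 0.214). WNT10A, the neighbour of WNT6, did not pass in HCC1937 either (-0.16 ± 0.07, adjusted p = 0.0781).

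WNT4 had 5.06, 3.74 and 3.60 CPM under EZH2i+AKTi in HCC38, against 1.05, 1.23 and 0.649 CPM in DMSO (2.05 ± 0.25), and WNT16 had 2.10, 2.86 and 2.82 CPM, against 0.884, 0.688 and 0.620 CPM in DMSO (1.79 ± 0.22). WNT2B rose in HCC38 as well (0.78 ± 0.17), and it overlaps ST7L on the opposite strand. WNT11 had 2.23, 1.85 and 2.05 CPM under EZH2i+AKTi in HCC1937, against 0.721, 0.352 and 0.354 CPM in DMSO (2.11 ± 0.26). In HCC38 WNT11 rose by 0.97 ± 0.24 (adjusted p = 0.0127, and 0.0546 without DMSO replicate B) and WNT9A by 0.91 ± 0.25 (adjusted p = 0.0188, lost without any of 3 single libraries). WNT10B fell by 0.72 ± 0.14 in HCC1937 and did not pass in HCC38 (-0.24 ± 0.15, adjusted p = 0.259).

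Among frizzleds, FZD7 had 54.8, 51.8 and 52.5 CPM under EZH2i+AKTi in HCC1937, against 25.6, 25.2 and 25.3 CPM in DMSO (1.06 ± 0.06). In HCC38 it had 196, 199 and 210 CPM, against 166, 150 and 160 CPM in DMSO (0.31 ± 0.09, adjusted p = 0.0208, lost without any of 4 single libraries). FZD4 rose by 0.80 ± 0.15 in HCC38 and 1.10 ± 0.16 in HCC1937. FZD1 had 9.52, 8.69 and 8.41 CPM under EZH2i+AKTi in HCC38, against 4.62, 4.64 and 4.62 CPM in DMSO (0.91 ± 0.12). In HCC1937 FZD1 fell by 0.27 ± 0.09 (adjusted p = 0.0150, and up to 0.0824 with 1 library left out), FZD6 by 0.28 ± 0.06 and FZD8 by 0.33 ± 0.08, while FZD2 rose by 0.71 ± 0.07 and FZD3 by 0.56 ± 0.12. FZD5 rose in HCC38 by 0.72 ± 0.12.

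DKK1 had 2058, 2180 and 2418 CPM under EZH2i+AKTi in HCC38, against 1127, 1110 and 1080 CPM in DMSO (0.97 ± 0.09, adjusted p = 4.07e-05). In HCC1937 it had 661, 631 and 683 CPM, against 413, 430 and 433 CPM in DMSO (0.63 ± 0.05, adjusted p = 1.26e-07). SFRP1 had 272, 266 and 266 CPM under EZH2i+AKTi in HCC1937, against 187, 207 and 214 CPM in DMSO (0.40 ± 0.06). In HCC38 SFRP1 rose by 0.36 ± 0.10 (adjusted p = 0.0214, lost without any of the DMSO libraries, highest adjusted p = 0.0950). DKK3 rose by 0.82 ± 0.10 in HCC38, and SFRP4 had 97 counts under EZH2i+AKTi and 7 in DMSO over the HCC1937 libraries. SFRP4 overlaps EPDR1 on the opposite strand. Every antagonist tested in these lines was thus higher, although SFRP4 and DKK3 passed the filter in HCC1937 only through treated libraries.

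Of the feedback genes past the minimum in DMSO, 2 of 5 were higher with both agents in HCC1395, 0 of 6 in HCC38 and 1 of 6 in HCC1937, and the difference between lines was not tested for the class. NKD2 had 6.02, 5.61 and 3.32 CPM under EZH2i+AKTi in HCC38, with replicate C the lowest, against 9.78, 9.60 and 9.62 CPM in DMSO, and fell by 0.98 ± 0.19 (adjusted p = 0.00385). In HCC1937 AXIN2 had 2.06, 1.70 and 2.07 CPM under EZH2i+AKTi, against 1.30, 0.946 and 1.15 CPM in DMSO (0.78 ± 0.20, adjusted p = 0.00291). AXIN2 was too low to test in HCC38, with 23 counts under EZH2i+AKTi and 10 in DMSO. ZNRF3 fell in HCC1937 by 0.39 ± 0.08 and LGR4 by 0.34 ± 0.07, and RNF43 did not pass in HCC38 (-0.31 ± 0.13, adjusted p = 0.108) or HCC1937 (-0.39 ± 0.18, adjusted p = 0.0757). LGR5 in HCC38 was at 0.709, 0.675 and 1.02 CPM under EZH2i+AKTi and 0.542, 0.838 and 0.846 CPM in DMSO, with overlap (adjusted p = 0.873). NKD1 did not pass in HCC38 (adjusted p = 0.823) or HCC1937 (adjusted p = 0.370).

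**Figure D4:**
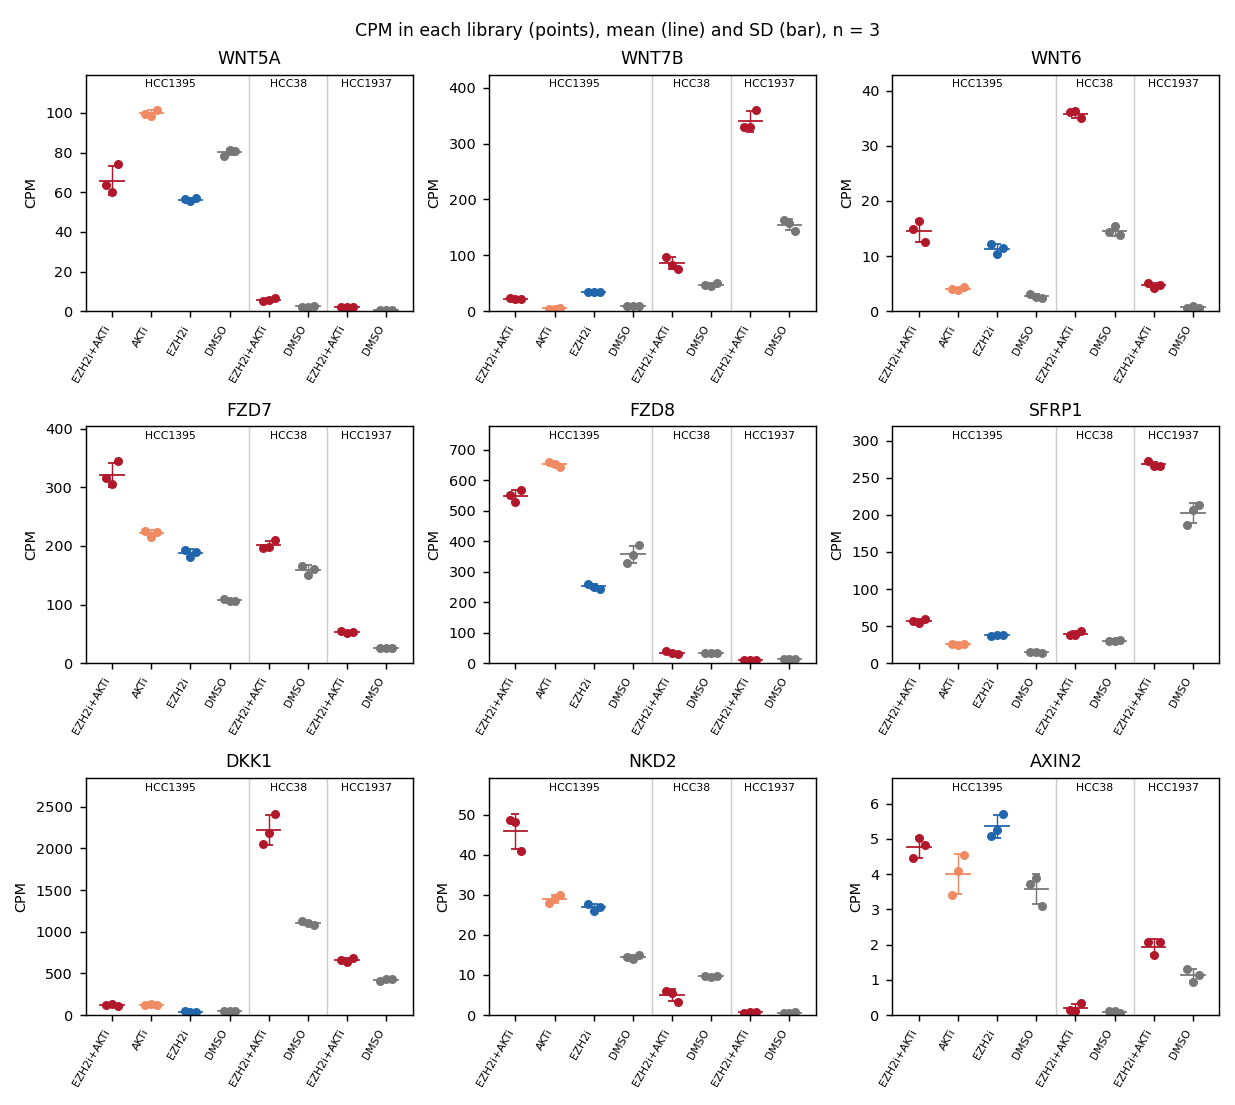
CPM of 9 genes in each library (points) by group, with the mean (line) and SD (bar) of 3 libraries, EZH2i+AKTi left of DMSO in each line. WNT6, WNT7B, FZD7, SFRP1 and DKK1 stand above DMSO under EZH2i+AKTi in every line, while WNT5A and NKD2 change direction between HCC1395 and HCC38.

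Taking the lines side by side, 9 genes were called higher under EZH2i+AKTi in all 3: the ligands WNT4, WNT6, WNT7B and WNT11, the receptors FZD4 and FZD7, and the antagonists SFRP1, DKK1 and DKK3. None was lower in all 3, beside 7.34% of all genes and 8.18% of those past the minimum in every DMSO library. Of genes tested in every line this was 32.1% of 28 genes of the group, beside 7.80% of all 14980 genes. Among those past the minimum in every DMSO library it was 28.0% of 25 (WNT11 and DKK3 left out), beside 6.90% of all such genes. With single libraries left out 6 to 9 genes stayed called in all 3 lines. Without HCC38 DMSO replicate B 6 did, as WNT11, FZD7 and SFRP1 were lost, and 7 did without HCC38 DMSO replicate A or C. DKK3, with 51 counts under EZH2i+AKTi and 19 in DMSO over the HCC1937 libraries, lost its call there without DMSO replicate A (adjusted p = 0.0547) or EZH2i+AKTi replicate A (adjusted p = 0.0502). Calls of opposite sign were found for 5 genes, FZD1, FZD6, FZD8, WNT5A and NKD2, which is 17.9% of the group beside 8.89% of all genes (5 of 25 beside 9.31% past the minimum in DMSO).

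For the genes called higher in all 3 lines, the 250 bases before the RefSeq (GRCh38.p14) transcription start are shown where given. Letters run 5′ to 3′ on the strand of the gene and capitals mark CpG pairs. WNT4 is from chr1:22143098-22143347 (minus strand), WNT6 from chr2:218859555-218859804 (plus), FZD4 from chr11:86955396-86955645 (minus) and DKK1 from chr10:52314031-52314280 (plus).
WNT4: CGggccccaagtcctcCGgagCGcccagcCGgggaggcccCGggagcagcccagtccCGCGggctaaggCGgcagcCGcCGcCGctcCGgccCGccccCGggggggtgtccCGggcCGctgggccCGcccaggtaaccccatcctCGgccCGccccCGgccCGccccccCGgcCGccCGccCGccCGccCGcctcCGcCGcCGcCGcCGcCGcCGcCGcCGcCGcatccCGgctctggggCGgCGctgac
WNT6: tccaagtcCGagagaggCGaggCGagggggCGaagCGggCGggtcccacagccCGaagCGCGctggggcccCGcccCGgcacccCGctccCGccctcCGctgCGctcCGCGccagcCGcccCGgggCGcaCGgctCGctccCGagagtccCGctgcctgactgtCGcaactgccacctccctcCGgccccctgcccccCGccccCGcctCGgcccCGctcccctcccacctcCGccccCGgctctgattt
FZD4: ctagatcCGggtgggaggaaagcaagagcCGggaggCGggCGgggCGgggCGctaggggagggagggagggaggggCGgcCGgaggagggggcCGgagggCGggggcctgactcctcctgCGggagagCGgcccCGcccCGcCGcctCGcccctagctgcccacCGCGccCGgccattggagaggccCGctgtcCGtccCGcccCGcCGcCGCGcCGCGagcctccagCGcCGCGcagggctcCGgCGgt
DKK1: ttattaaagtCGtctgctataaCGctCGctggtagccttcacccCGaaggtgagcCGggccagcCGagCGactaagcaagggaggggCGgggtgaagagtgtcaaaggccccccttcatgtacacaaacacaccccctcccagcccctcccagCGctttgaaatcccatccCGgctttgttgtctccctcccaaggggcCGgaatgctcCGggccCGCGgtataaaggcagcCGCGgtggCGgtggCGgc
These windows hold 40, 32, 33 and 18 CpG pairs. Of the 44 genes 28 matched a window, with a median of 23.5 CpG pairs and a range of 3 (WNT8B) to 44 (WNT9A), while the median of all 35116 windows of this length was 11. Other windows are as rich in CpG, with 38 pairs each at WNT3A and at WNT2, which passed no filter on counts. CTTTGAA, 1 form of the TCF/LEF motif, was searched on both strands. It was found in 1 window of the group, that of DKK1, and in 3.80% of all windows. In DKK1 it begins 95 bases before the start. GTAAACA, 1 form of the FOXO motif, was searched likewise and found in 1, that of WNT5B, and in 2.98% of all windows. Other forms of either motif were not searched, so windows without a match may hold them. WNT5B has 2 windows, and the one used has its RefSeq start 87165 bases from the GENCODE start of the gene. The RefSeq starts of SFRP4 (108878 bases), WNT9B (18382) and WNT3 (14462) also lie far from the GENCODE starts. That of WNT4 lies 872 bases from its GENCODE start, so the window shown for WNT4 is inside the GENCODE gene. The motifs do not overlap each other, and a match is only a run of letters.

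Differences in the response to EZH2i+AKTi between lines were tested directly in the joint fit. The response in HCC38 less that in HCC1395 was called higher for 6 and lower for 15 of 36 genes of the group, beside 33.0% of all genes in either direction. For HCC1937 less HCC1395 these were 4 and 13 beside 23.3%, and for HCC38 less HCC1937 12 and 8 beside 32.0%. Among genes past the minimum in every DMSO library compared, they were 6 and 11 of 26, 3 and 11 of 26, and 11 and 7 of 27. The medians there were -0.20, -0.23 and 0.11, beside 0.03, -0.01 and 0.04 for all such genes. NKD2 differed by -2.62 ± 0.18 between HCC38 and HCC1395 (adjusted p = 3.45e-12), with its fall in HCC38 and its rise in HCC1395. WNT5A differed by 1.53 ± 0.15 between HCC38 and HCC1395 and by 1.99 ± 0.19 between HCC1937 and HCC1395. SFRP1 rose more in HCC1395 than in HCC38 (difference -1.58 ± 0.10) or HCC1937 (-1.56 ± 0.10). RNF43 rose in HCC1395 and did not pass in the other lines, and its response differed by -2.94 ± 0.34 and -3.05 ± 0.36, from 20 counts in HCC1395 DMSO. FZD1 differed by -1.07 ± 0.10 between HCC1937 and HCC1395 and by 1.21 ± 0.12 between HCC38 and HCC1937.

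**Figure D5:**
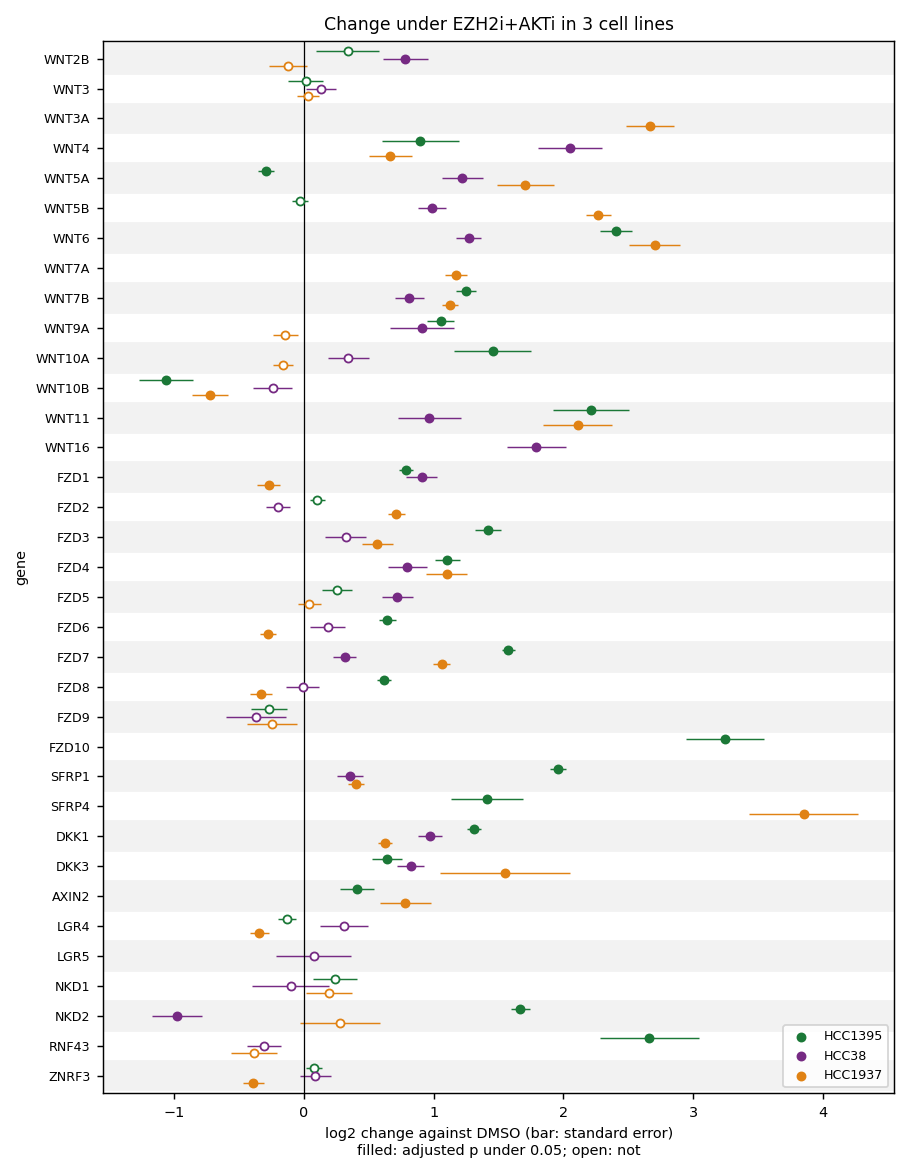
Log2 change under EZH2i+AKTi against DMSO in HCC1395 (green), HCC38 (purple) and HCC1937 (orange) for each gene tested in at least 1 line except SFRP2. Bars are standard errors and filled points have adjusted p under 0.05. WNT4, WNT6, WNT7B, WNT11, FZD4, FZD7, SFRP1, DKK1 and DKK3 are filled and right of 0 in all 3 lines, and NKD2 lies at 1.67, -0.98 and 0.28.

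The remaining genes of the pathway, in 5 lists, were read beside the group. Their counts are to be read against the shares of all genes called higher and lower, which were 18.8% and 14.9% under EZH2i, 27.1% and 22.6% under AKTi, 32.5% and 27.4% under both agents in HCC1395, 16.8% and 14.5% in HCC38, and 30.5% and 28.8% in HCC1937. Among 21 genes of WNT secretion and extracellular control, EZH2i in HCC1395 gave 11 higher and 1 lower of 16 tested (9 and 1 of 14 past the minimum in DMSO), with a median log2 change of 0.89. The glypican GPC3 had 7.55 CPM under EZH2i and 0.711 CPM in DMSO (3.41 ± 0.17), SOST, which encodes the LRP inhibitor sclerostin, 3.03 and 0.352 CPM (3.10 ± 0.25), NOTUM, a deacylase that inactivates WNT proteins, 6.87 and 2.38 CPM (1.53 ± 0.13), and GPC4 rose by 1.03 ± 0.06. AKTi gave 5 higher and 4 lower, with SOST at -1.71 ± 0.41, and EZH2i+AKTi 12 higher and 3 lower. In HCC38 the list had 7 higher and 1 lower of 14 (3 and 1 of 10 past the minimum), and in HCC1937 6 and 1 of 9 (4 and 1 of 7). KREMEN1, a Dickkopf receptor, rose under EZH2i+AKTi by 0.74 ± 0.06 in HCC1395, 1.16 ± 0.13 in HCC38 and 0.85 ± 0.09 in HCC1937, and GPC4 rose in each line too. WIF1, a secreted inhibitor, was at 0.990 CPM under EZH2i+AKTi and 0.0862 CPM in DMSO in HCC38. It lay under the count minimum in DMSO and passed the filter there only through treated libraries.

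Of the 8 co-receptors and alternative receptors, LRP5 rose little in HCC1395 (0.19 ± 0.05 under EZH2i, 0.19 ± 0.05 under AKTi, 0.23 ± 0.05 under both). LGR6, a relative of LGR5, had 39.0 CPM under EZH2i and 23.3 CPM under EZH2i+AKTi, against 13.0 CPM in DMSO. ROR1, a receptor of WNT5A, fell by 0.51 ± 0.08 under EZH2i in HCC1395 and by 0.28 ± 0.10 under EZH2i+AKTi in HCC1937, and rose by 0.83 ± 0.19 in HCC38. ROR2 rose by 1.75 ± 0.19 in HCC1937. In total 2 were higher and 2 lower of 7 under EZH2i, 3 and 0 under AKTi, 4 and 3 under both, 1 and 0 of 6 in HCC38, and 2 and 2 of 8 in HCC1937. With so few genes, 2 and 2 of 7 stand beside 18.8% and 14.9% of all genes under EZH2i, and 3 and 0 of 7 beside 27.1% and 22.6% under AKTi.

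Genes that act in the cytoplasm and nucleus, 31 in number with 30 tested, gave 11 higher and 6 lower under EZH2i, 10 and 4 under AKTi and 13 and 7 under both in HCC1395, 4 and 2 in HCC38, and 12 and 6 in HCC1937. Several of these are near the share of all genes, such as 10 of 30 higher under AKTi beside 27.1% and 7 of 30 lower under both agents beside 27.4%. CTNNB1, which encodes beta-catenin, had 439 CPM under EZH2i+AKTi and 625 CPM in DMSO in HCC1395 (-0.52 ± 0.05, adjusted p = 6.01e-08). TCF7L1, often a repressor of the pathway, had 21.0 CPM under EZH2i+AKTi and 10.4 CPM in DMSO in HCC1395, and rose by 0.78 ± 0.09 in HCC1937. LEF1 had 18.1 CPM under EZH2i and 6.98 CPM under AKTi, against 10.1 CPM in DMSO (0.85 ± 0.08 and -0.54 ± 0.09). Of 12 planar polarity genes 4 were higher and 0 lower under EZH2i, 5 and 2 under AKTi, 6 and 2 under both, 5 and 1 in HCC38, and 5 and 4 in HCC1937, beside all-gene shares, in the same order, of 18.8% and 14.9%, 27.1% and 22.6%, 32.5% and 27.4%, 16.8% and 14.5%, and 30.5% and 28.8%. DAAM1, which links Dishevelled to the cytoskeleton, rose by 1.53 ± 0.12 in HCC38 and 1.04 ± 0.06 in HCC1937.

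A list of 23 genes known as beta-catenin targets in colon or embryo had 17 tested in HCC1395 and HCC1937 and 15 in HCC38. In HCC1395 13 were higher and 3 lower under EZH2i (11 and 3 of 15 past the minimum in DMSO), 7 and 4 under AKTi, and 13 and 1 under both (12 and 1 of 15), where all genes had 18.8% and 14.9%, 27.1% and 22.6%, and 32.5% and 27.4%. In HCC38 9 were higher and 0 lower (8 and 0 of 14), and in HCC1937 12 and 3 (9 and 3 of 14), beside 16.8% and 14.5%, and 30.5% and 28.8%. The medians under EZH2i+AKTi were 0.75, 0.54 and 0.73, beside 0.07, -0.01 and 0.03 for all genes. Among those with the smallest adjusted p, the surface receptor gene CD44 had 1195 CPM under EZH2i+AKTi and 607 CPM in DMSO in HCC38, the transcription factor gene TBX3 had 141 and 55.5 CPM in HCC1395, and MYC had 141 and 64.2 CPM in HCC1937. BAMBI, which encodes a decoy receptor of the TGF-beta family, had 58.5 CPM under EZH2i+AKTi and 164 CPM in DMSO in HCC1937. SP5, a transcription factor gene, had 7.39 and 1.90 CPM in HCC38 (1.93 ± 0.16). AXIN2 and NKD1 were not both higher under EZH2i+AKTi in any line.

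Marker levels moved with treatment too. In HCC1395 the summed epithelial markers ran from 665 to 779 CPM under EZH2i+AKTi, 460 to 494 CPM under AKTi and 673 to 714 CPM under EZH2i, against 494 to 513 CPM in DMSO. Its members did not move as one: under AKTi KRT8 averaged 95.9 CPM and KRT18 49.4 CPM, against 32.5 and 29.1 CPM in DMSO, while KRT14 averaged 327 CPM under AKTi and 430.5 CPM in DMSO. Summed mesenchymal markers ran from 3070 to 3408 CPM under EZH2i+AKTi, 3838 to 4061 CPM under AKTi and 1940 to 1999 CPM under EZH2i, against 2350 to 2574 CPM in DMSO. Under EZH2i+AKTi VIM averaged 2306 CPM and FN1 615 CPM, against 1528 and 513 CPM in DMSO, while CDH2 (286 CPM under EZH2i+AKTi and 349 CPM in DMSO) and ZEB1 (29.7 and 39.7 CPM) ran the other way. In HCC38 CDH2 averaged 129 CPM and FN1 262 CPM under EZH2i+AKTi, against 41.3 and 119 CPM in DMSO. VIM hardly moved there, at 955 CPM under EZH2i+AKTi and 952 CPM in DMSO. In HCC1937 CDH1 averaged 303 CPM, EPCAM 206 CPM and KRT5 1.06 CPM under EZH2i+AKTi, against 693, 335 and 6.41 CPM in DMSO. KRT18 ran the other way in HCC1937, at 1801 CPM under EZH2i+AKTi and 1680 CPM in DMSO. KRT17 averaged 97.1 and 104.5 CPM there, with overlap. There the endothelial markers PECAM1 and CDH5 were at 30.3 to 31.8 and 31.6 to 34.8 CPM under EZH2i+AKTi, against 21.2 to 22.3 and 12.7 to 15.9 CPM in DMSO. The part of these markers and of the mitochondrial share in the results on the WNT genes was not tested. Without replicate C of EZH2i+AKTi in HCC38, the library that stood apart, 16 genes of the group were called higher and 1 lower there, and the change of NKD2 was -0.73 ± 0.12.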

How the data were processed

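The authors deposited raw read counts per gene for each of 24 libraries; these whole-number counts were the only values used, and the deposited normalised tables were not. Reads were handled with fastp, HISAT2 2.0.5 and DESeq2 on hg38, per the submitters' processing notes; no source used here gives the counting tool, annotation release or strand setting. Counts were tested with edgeR 4.0.16 (quasi-likelihood, TMM scaling, filterByExpr with a minimum count of 10, robust) in R 4.3.3, within each line, and in 1 fit of 24 libraries between lines. P-values were adjusted by Benjamini-Hochberg over all genes tested (18074 in HCC1395, 17100 in HCC38, 17692 in HCC1937, 20697 jointly), with calls at 0.05. CPM uses the TMM scale of the joint fit, and RPKM divides it by the exon length of GENCODE 29. Fits were also run on data simulated from their own fitted spread, with changes placed only in genes above a low level. Such a run does not cover genes with few counts or dependence between replicates. No 2 libraries were identical (0 pairs).

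Genes were picked for description where called, changed at least 2-fold and with groups that did not overlap. AXIN2, LGR5, RNF43, ZNRF3, NKD1 and FZD7 were added whatever their p. Not every gene picked is given with its value in each library for every comparison, such as WNT11 and FZD3 under EZH2i+AKTi in HCC1395. Of each context list up to 4 called genes with the smallest adjusted p were named. NKD2, WNT5B, FZD2, LGR4 and others below 2-fold were added after their values were seen, as were members of the lists followed across lines. The members and lists were chosen with earlier results of these data known. Alternatives were RLE scaling, no filter, a filter of 1 CPM in 3 libraries, DESeq2 1.42.0, a replicate block, other sets of libraries in the fit, and each library left out; a restriction to genes past the minimum in every DMSO library was added after seeing the data. Library totals limit precision for genes with few counts.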

Additional observations from a re-analysis of the deposited data

Results flagged for a closer look

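Responses to EZH2i+AKTi that differed between lines by a test of the difference (edgeR, joint fit) are given as the log2 response in the first line less that in the second, where the size was at least 1 or the calls in the lines were opposite. For HCC38 less HCC1395 the difference was 1.18 for WNT4, 1.53 for WNT5A, 1.04 for WNT5B, -1.11 for WNT6, -1.09 for WNT10A and -1.23 for WNT11. It was -1.08 for FZD3, -1.24 for FZD7, -1.58 for SFRP1, -2.62 for NKD2 and -2.94 for RNF43. WNT5A and NKD2 had opposite calls in these lines. The difference of WNT4 lost its call without HCC1395 DMSO replicate B (adjusted p = 0.105), and that of WNT11 (adjusted p = 0.0238) was lost without any of 5 single libraries (up to 0.0855).

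For HCC1937 less HCC1395 the difference was 1.99 for WNT5A, 2.29 for WNT5B, -1.20 for WNT9A and -1.62 for WNT10A. Among frizzleds it was -1.07 for FZD1, -0.93 for FZD6 and -0.95 for FZD8, each with opposite calls in the lines. WNT5A had opposite calls too. The difference was -1.56 for SFRP1, 2.43 for SFRP4, -1.39 for NKD2 and -3.05 for RNF43; SFRP4 and RNF43 rest on few counts in DMSO of one line.

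For HCC38 less HCC1937 the difference was 1.41 for WNT4, -1.25 for WNT5B, -1.41 for WNT6, 1.08 for WNT9A and -1.11 for WNT11. It was 1.21 for FZD1, with opposite calls, and -1.23 for NKD2. The difference of WNT11 (adjusted p = 0.0338) was lost with no low-count filter (0.0566) and without any of 7 single libraries (up to 0.106).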

How the results depend on the processing

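Of 301 called results on the 44 genes, 263 kept their call under every alternative in which the gene was tested. The other 38 lost it under at least 1, and none changed direction. The stricter filter left 287 of the 301 results to compare and DESeq2 300, so the rest are not shown to hold there. With both agents in HCC1395, 4 genes rather than 2 were lower with no low-count filter. Against EZH2i alone, 2 to 4 were lower with single libraries left out (2 without EZH2i replicate A or EZH2i+AKTi replicate A). The interaction was the least stable result: 1 gene was higher with no filter and with DESeq2, and 0 to 1 with single libraries left out; 0 were lower with RLE scaling, no filter, DESeq2 and a common fit of all libraries, and 0 to 1 with single libraries left out. Over all genes the interaction had 286 calls, 477 with DESeq2, 78 in the common fit and 127 to 1022 with single libraries left out. All genes called in HCC38 numbered 5362, and 3114 to 6715 with single libraries left out. Without a call in the first place, 3 genes in HCC38 changed sign with single libraries left out: LGR5 ran from -0.12 to 0.21, NKD1 from -0.48 to 0.10 and ZNRF3 from -0.0107 to 0.16. The causes were not tested. Replicate letters do not pair the libraries (correlations of same-letter deviations -0.208 to 0.109), and with a replicate block 3 of 301 calls were lost. Genes with few counts are limited by depth.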
